A study of Homo sapiens with 9 samples.

Results

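The butyrophilins BTN3A1, BTN3A2, BTN3A3, BTN2A1 and BTN2A2 were 5 of the 20265 genes in a table of RNA-seq read counts from U937-Cas9 cells. U937 cells are a human line of monocytic origin kept in culture, and Cas9 is the nuclease used to knock out genes. Rows were taken by their Ensembl identifiers, and the genes were selected on their counts in these same libraries. Their differences between groups are therefore a description, given with no p-value. Calls of the fit over all genes are counted for them only beside the share of all genes called, and nothing is read from those counts, because the selection used the same values. All 5 passed the filter on low counts, as did 11517 genes in the table.

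The 9 libraries formed 3 groups of 3, all of U937-Cas9 cells and with no treatment stated. The groups were WT cells, cells with an IRF2 knockout (IRF2KO), and IRF2KO cells with pIRF2 added (IRF2KO_pIRF2). Nothing in the labels states how IRF2 was edited, what pIRF2 encodes, which promoter drives it, or whether a group is 1 clone. Nor do they call replicates separate cultures, so a p-value here measures only the spread between these libraries, which may be technical. Library totals ranged from 14824907 to 23108288 counts, and 12.2% to 18.8% of a library's counts fell on mitochondrially encoded genes. Over all genes, the first principal component set WT replicate 1 and IRF2KO replicate 2 farthest apart.

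Butyrophilins are membrane proteins of the immunoglobulin superfamily, related to the B7 costimulatory ligands. BTN3A1 binds phosphoantigens, small metabolites of isoprenoid synthesis, through its intracellular domain, and with BTN2A1, which binds the gamma chain of the receptor, it lets human gamma delta T cells respond to tumour or infected cells. BTN3A2 lacks that intracellular domain and helps BTN3A1 reach the cell surface. BTN3A3 carries the domain but does not bind phosphoantigens in the same way, and BTN2A2 has been described in mice as an inhibitor of T cell responses. IRF2 is a transcription factor that binds interferon regulatory elements in promoters.

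All 5 genes lie on the plus strand of chromosome 6 within 111 kb (GRCh38, GENCODE 29). In order they are BTN3A2 (chr6:26365159-26378320), BTN2A2 (chr6:26383096-26394874), BTN3A1 (chr6:26402237-26415216), BTN3A3 (chr6:26440472-26453415) and BTN2A1 (chr6:26457904-26476621). Among these 5 genes the subfamilies are thus interspersed, with BTN3A1 and BTN3A3 following each other. None of their exonic bases overlapped an exon of another annotated gene on either strand. RefSeq promoters (GRCh38.p14, 250 bases before to 50 after the transcript start) were at hand for 3 of the 5 genes. All 3 are shown, because IRF2 binds promoter elements of this kind. BTN3A2 and BTN3A3 were lower in the knockout and BTN2A1 was not called. Whether the promoter sequences bear on this was not tested. BTN3A2 is chr6:26364948-26365247, BTN3A3 is chr6:26440254-26440553 and BTN2A1 is chr6:26457705-26458004, each read 5′ to 3′ on the plus strand, with capitals on matches to the interferon regulatory factor core AANNGAAA on either strand.

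BTN3A2: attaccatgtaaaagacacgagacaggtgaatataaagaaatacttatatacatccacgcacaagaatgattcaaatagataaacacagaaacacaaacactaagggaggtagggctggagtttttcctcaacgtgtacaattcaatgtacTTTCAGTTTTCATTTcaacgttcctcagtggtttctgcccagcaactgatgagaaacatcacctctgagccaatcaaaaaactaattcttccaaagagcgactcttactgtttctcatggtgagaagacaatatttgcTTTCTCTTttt
BTN3A3: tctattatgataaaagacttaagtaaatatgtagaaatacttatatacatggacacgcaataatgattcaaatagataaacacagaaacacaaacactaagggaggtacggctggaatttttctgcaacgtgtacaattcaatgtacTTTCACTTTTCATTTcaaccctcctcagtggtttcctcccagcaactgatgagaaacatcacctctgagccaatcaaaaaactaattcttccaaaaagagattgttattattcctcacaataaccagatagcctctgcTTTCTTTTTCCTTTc
BTN2A1: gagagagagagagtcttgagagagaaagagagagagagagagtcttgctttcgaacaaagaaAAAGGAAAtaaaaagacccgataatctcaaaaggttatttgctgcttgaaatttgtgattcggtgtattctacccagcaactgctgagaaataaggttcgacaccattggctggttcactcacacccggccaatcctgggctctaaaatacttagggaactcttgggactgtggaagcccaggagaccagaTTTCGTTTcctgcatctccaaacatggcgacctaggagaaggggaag

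The BTN3A2 and BTN3A3 promoters each held a pair of core matches on the minus strand that share 1 base. The pair read TTTCAGTT and TTTCATTT from -99 to -85 of the BTN3A2 start, and TTTCACTT and TTTCATTT from -103 to -89 of the BTN3A3 start. BTN2A1 held 2 separate single matches, AAAGGAAA from -188 to -181 on the plus strand and TTTCGTTT from 3 to 10 on the minus strand. Both BTN3A promoters also had matches just after the start, 1 in BTN3A2 and 2 that overlap in BTN3A3, the first of which is part of a GAAA repeat separated by 2 bases from 35 to 44. A second annotated start of BTN3A2 (chr6:26367928-26368227) had no match to any motif searched.

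Of 35116 promoters in the reference, 22.8% held at least 1 core, 3.57% the GAAA repeat and 0.188% a pair of cores on 1 strand that share 1 base. That last feature was defined after the promoters had been read. The Y box CCAAT, searched on both strands, was present in all 3 promoters and in 34.6% of the reference set. The 11-base run CCCAGCAACTG was found by searching these 3 promoters for their longest common run, so its presence in all 3 was fixed. It occurred in 21 promoters of the set (0.0598%), these 3 among them. Of 6 other tested genes with the run, 0 passed edgeR's test in any of the 3 comparisons, near the share of all tested genes. Over aligned bases, gaps left out, the BTN3A2 and BTN3A3 promoters were 85.1% identical, and they were 47.2% and 47.1% identical to that of BTN2A1. Over the full 300 bases these values were 83.7%, 44.7% and 45.3%. A match describes letters in this window and does not show that a factor binds there.

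**Figure D1:**
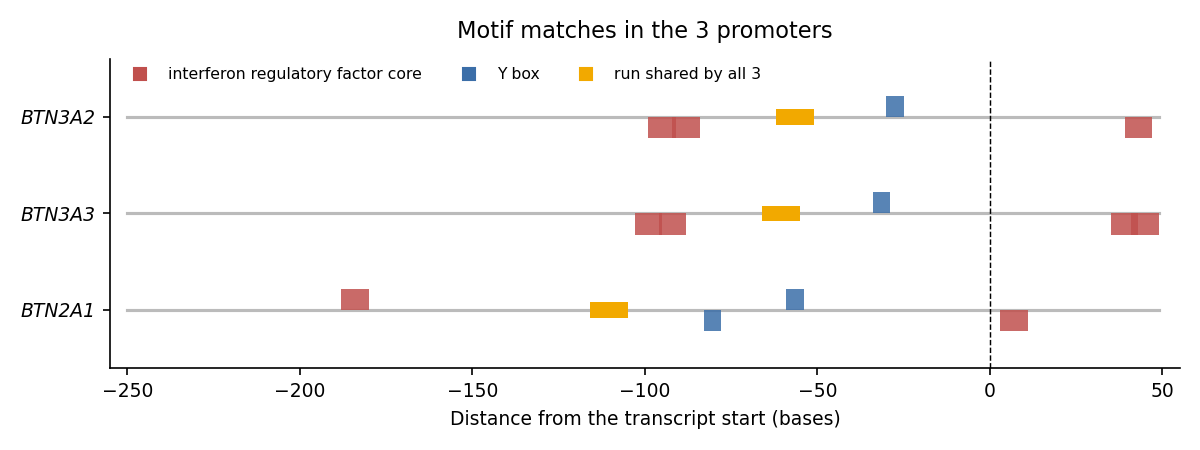
Motif matches in the promoters of BTN3A2, BTN3A3 and BTN2A1, by distance in bases from the transcript start (dashed line). Boxes above the line are on the plus strand and boxes below it on the minus strand; adjoining red boxes at -99 to -85 in BTN3A2 and -103 to -89 in BTN3A3 are the paired cores, which BTN2A1 does not show.

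Genes other than the members whose promoters hold a core gave a count of called genes. In IRF2KO against WT, 25 of 1947 tested genes with a core (1.28%) passed the edgeR quasi-likelihood test as lower, beside 28 of 9159 genes with any promoter in the set (0.306%). The second group includes the first, so it is not a separate background. The narrower feature of paired cores was in 13 other tested genes, and 0 of these passed in any of the 3 comparisons by edgeR, DESeq2 or limma-voom at an adjusted p of 0.05. In IRF2KO against WT, 1 of the 13 was lower and 1 higher at an unadjusted p under 0.05, near the shares over all tested genes of 7.98% and 10.7%. These counts are a description, with no test of enrichment.

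The targeted gene was measured in every library first. IRF2 (chr4:184387713-184474580, minus strand) stood at 37.1, 39.1 and 44.1 CPM (counts relative to library size, after TMM scaling) in the WT libraries. It stood at 23.5, 25.9 and 25.5 CPM in IRF2KO and at 15.2, 18.1 and 18.4 CPM in the libraries labelled pIRF2, so IRF2 counts fell in the knockout and were not higher in the libraries labelled pIRF2. The log2 difference was -0.68 ± 0.13 (SE) in IRF2KO against WT (adjusted p = 0.0433), -0.53 ± 0.13 in IRF2KO_pIRF2 against IRF2KO (adjusted p = 0.235) and -1.22 ± 0.13 in IRF2KO_pIRF2 against WT (adjusted p = 0.00295). Gene counts cannot tell edited from intact IRF2 transcripts, nor whether pIRF2 transcripts lack the counted exons. The first of these calls was lost without any 1 of 8 of the 9 libraries, with the log2 difference between -0.74 and -0.61, and when only the 2 groups were fitted (adjusted p = 0.217). DESeq2 called IRF2 lower in IRF2KO_pIRF2 against IRF2KO as well (log2 difference -0.53 ± 0.13, adjusted p = 0.0145).

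Transcripts of the BTN3A genes were lower in every IRF2KO library than in every WT library and lay between the 2 in the libraries labelled pIRF2. BTN2A1 and BTN2A2 overlapped between all 3 groups. BTN3A1, the phosphoantigen sensor, had 22.1, 22.4 and 24.8 CPM in the WT libraries, 3.80, 3.90 and 2.87 CPM in IRF2KO, and 11.6, 10.4 and 9.39 CPM in IRF2KO_pIRF2. BTN3A2 had 30.5, 31.5 and 33.9 CPM in WT, 11.0, 10.6 and 11.3 CPM in IRF2KO, and 19.8, 23.1 and 17.3 CPM in IRF2KO_pIRF2. BTN3A3 had 11.0, 14.1 and 11.6 CPM in WT, 1.64, 1.87 and 0.902 CPM in IRF2KO, and 4.90, 5.36 and 5.67 CPM in IRF2KO_pIRF2. In each of the 3 genes, which were selected on these values, no library lay inside the range of another group. Over all tested genes, all 3 IRF2KO libraries were lower than WT in 8.23%. All 3 IRF2KO_pIRF2 libraries were higher than IRF2KO in 11.1% and lower than WT in 5.75%. The share of genes with all these separations at once was not counted.

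BTN2A1, the partner of BTN3A1 in recognition by gamma delta T cells, had 9.53, 10.8 and 12 CPM in WT, 10.6, 9.97 and 9.52 CPM in IRF2KO, and 10.2, 10.8 and 8.58 CPM in IRF2KO_pIRF2. BTN2A2 had 2.73, 3.07 and 3.80 CPM in WT, 2.66, 4.10 and 2.59 CPM in IRF2KO, and 3.22, 3.52 and 2.91 CPM in IRF2KO_pIRF2. Both genes mixed the groups, and for BTN2A2 the highest library of the 9 was IRF2KO replicate 2, one of the pair farthest apart on the first principal component. The smallest count behind any of these values was 16, for BTN3A3 in IRF2KO replicate 3, above the floor of detection of 3 counts. In bulk RNA, fewer cells with a transcript and less of it per cell cannot be told apart.

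**Figure D2:**
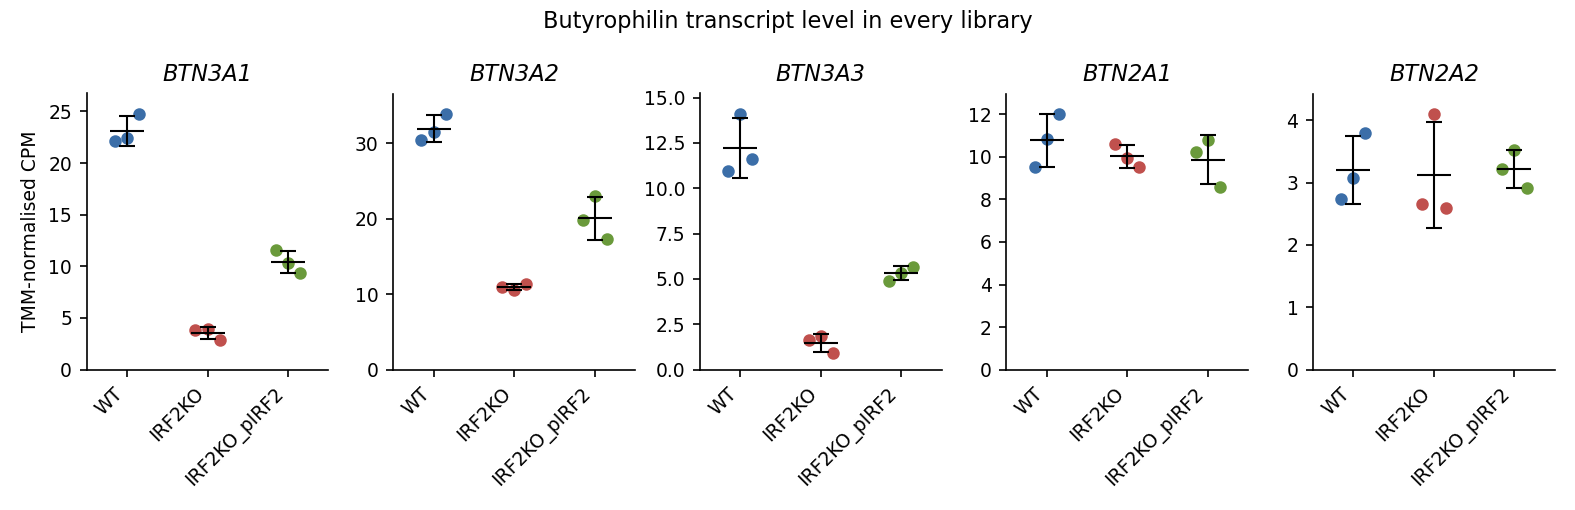
TMM-normalised CPM of the 5 butyrophilins in each of the 9 libraries (points), with the mean and SD of each group (bar and whiskers, n = 3 libraries). The vertical axes differ between panels; the BTN3A points separate by group, with IRF2KO lowest, and the BTN2A points overlap.

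In IRF2KO against WT, BTN3A1 was 6.54-fold lower (log2 difference -2.71 ± 0.16 SE), BTN3A2 2.91-fold lower (-1.54 ± 0.14) and BTN3A3 8.21-fold lower (-3.04 ± 0.23). The knockout thus kept 15.3%, 34.3% and 12% of the WT mean, BTN3A2 being the least reduced. BTN2A1 differed by -0.11 ± 0.15 and BTN2A2 by -0.03 ± 0.23 on the log2 scale. Summed over the subfamily, BTN3A counts were 4.21-fold lower (-2.08 ± 0.12), whereas BTN2A counts differed by -0.09 ± 0.15.

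At a Benjamini-Hochberg adjusted p of 0.05 in edgeR's quasi-likelihood test, 3 of the 5 members were called lower in IRF2KO against WT, all of them BTN3A, beside 0.365% of the 11517 genes tested. None of the members was called higher, beside 0.0521%. The WT and IRF2KO libraries did not overlap, with all 3 knockout libraries lower, in 3 members and in 8.23% of tested genes. BTN2A1 and BTN2A2 were called by none of edgeR, DESeq2 and limma-voom, and 0 of the 2 had an unadjusted p under 0.05 in any comparison, which does not show that they were equal.

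In IRF2KO_pIRF2 against IRF2KO, BTN3A1 was 2.96-fold higher (log2 difference 1.56 ± 0.16), BTN3A2 1.83-fold (0.87 ± 0.14) and BTN3A3 3.57-fold (1.84 ± 0.24). BTN2A1 differed by -0.02 ± 0.15 and BTN2A2 by 0.04 ± 0.22. Here 3 of the 5 members, again the BTN3A genes, were called higher beside 0.339% of all genes, none was called lower beside 0.026%, and the 3 had no overlap between groups beside 11.1%. The call of BTN3A2 was lost without IRF2KO replicate 1, IRF2KO replicate 3, pIRF2 replicate 1 or pIRF2 replicate 2, at log2 differences between 0.76 and 0.90. This comparison and the first share the IRF2KO libraries.

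Levels in the libraries labelled pIRF2 stayed under WT. BTN3A1 was 2.21-fold lower (log2 difference -1.14 ± 0.15), BTN3A2 1.59-fold lower (-0.67 ± 0.13) and BTN3A3 2.3-fold lower (-1.20 ± 0.20), while BTN2A1 and BTN2A2 differed by -0.13 ± 0.15 and 0.01 ± 0.22. In terms of level, these libraries held 45.2%, 62.7% and 43.4% of the WT mean of the 3 BTN3A genes, and the gain over IRF2KO was 35.3%, 43.3% and 35.7% of the difference between WT and IRF2KO. Against WT, 1 member, BTN3A1, was called lower beside 0.0434% of genes and none was called higher beside 0.0347%. The 3 BTN3A genes did not overlap between the groups, beside 5.75% of genes with all 3 libraries lower. The single call was lost without WT replicate 2 or without any of the 3 pIRF2 libraries, with the log2 difference of BTN3A1 between -1.23 and -1.08.

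**Figure D3:**
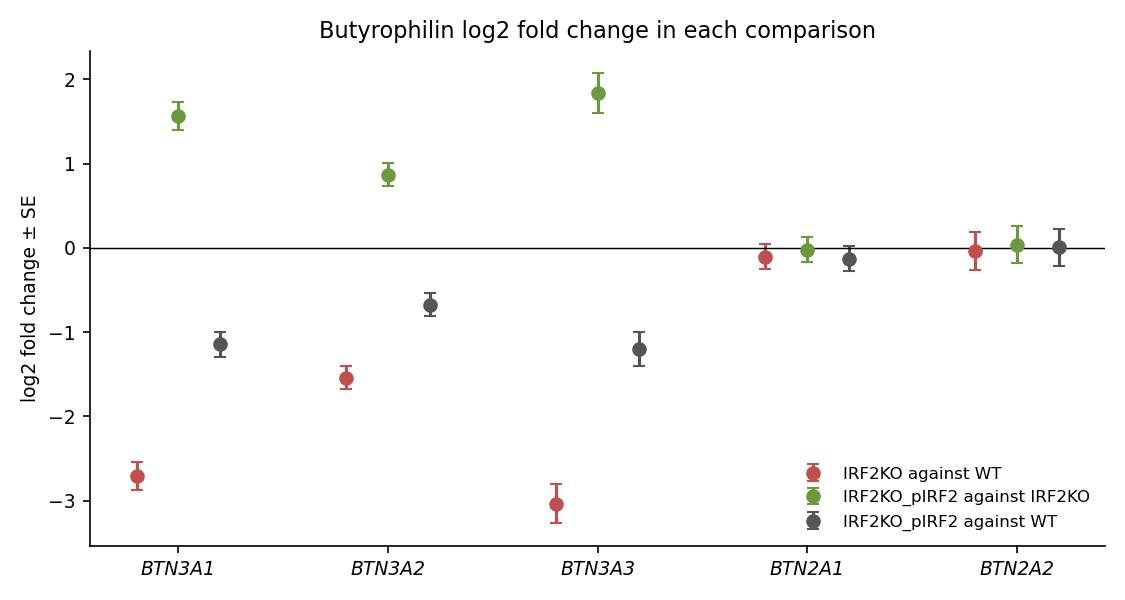
Log2 fold change ± SE of each butyrophilin in the 3 comparisons, from edgeR over all 9 libraries. BTN3A genes lie between -3.04 and -1.54 in IRF2KO against WT and between 0.87 and 1.84 in IRF2KO_pIRF2 against IRF2KO, and BTN2A genes lie near 0 in all 3; the comparisons share libraries.

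The division of BTN3A counts among the 3 genes also differed between groups, and it does not depend on scaling between libraries. BTN3A2 took 46.4% to 48.2% of BTN3A counts in the WT libraries, 64.7% to 75% in IRF2KO and 53.5% to 59.5% in IRF2KO_pIRF2, and its groups did not overlap. BTN3A1 took 32.9% to 35.2% in WT, 19.0% to 23.8% in IRF2KO and 26.7% to 31.9% in IRF2KO_pIRF2. BTN3A3 had 16.5% to 20.7% in WT, 5.97% to 11.5% in IRF2KO and 13.5% to 17.5% in IRF2KO_pIRF2, where WT and IRF2KO_pIRF2 overlapped. For the BTN3A2 share, 95% Wilson intervals, which cover counting error within 1 library only, reached at most 50.9% in WT and began at 59.3% or higher in IRF2KO. In IRF2KO_pIRF2 replicate 3 the interval of 49.7% to 57.2% overlapped that of WT replicate 3, 45.6% to 50.9%. BTN2A1 held 70.9% to 79.9% of BTN2A counts over the 9 libraries.

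The ratio of BTN3A to BTN2A counts within a library was 5.19, 4.89 and 4.44 in WT. It was 1.24, 1.16 and 1.25 in IRF2KO and 2.70, 2.71 and 2.82 in IRF2KO_pIRF2. The 3 groups did not overlap in this ratio, and replicates were close to each other.

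**Figure D4:**
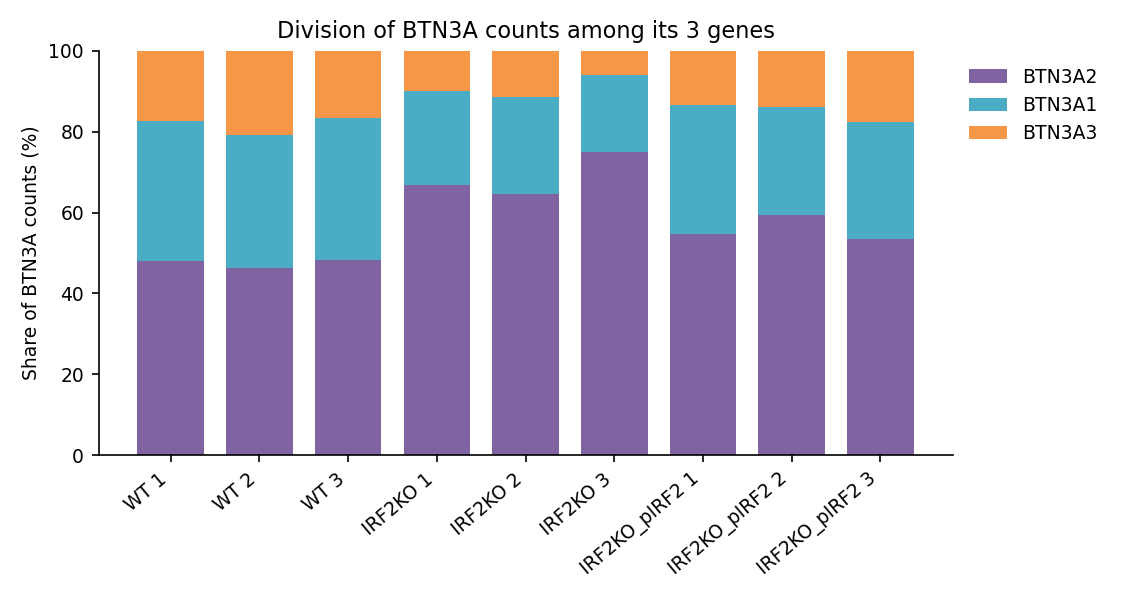
Share of BTN3A counts (percent) that fell on BTN3A2, BTN3A1 and BTN3A3 in each of the 9 libraries, as stacked bars. The BTN3A2 share lies between 46.4% and 48.2% in WT and between 64.7% and 75% in IRF2KO.

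Levels between genes were compared as CPM per kb of merged exons. In WT the order was BTN3A2 (4.54 ± 0.25 CPM per kb, SD), BTN3A1 (4.16 ± 0.26), BTN2A1 (2.85 ± 0.33), BTN3A3 (2.16 ± 0.29) and BTN2A2 (0.500 ± 0.086), and the libraries of the first 2 overlapped. In IRF2KO, BTN2A1 was first (2.65 ± 0.14), followed by BTN3A2 (1.56 ± 0.05), BTN3A1 (0.635 ± 0.10), BTN2A2 (0.487 ± 0.13) and BTN3A3 (0.260 ± 0.090), with overlap between BTN3A1 and BTN2A2. In IRF2KO_pIRF2 the order was BTN3A2 (2.85 ± 0.41), BTN2A1 (2.61 ± 0.31), BTN3A1 (1.88 ± 0.20), BTN3A3 (0.938 ± 0.069) and BTN2A2 (0.503 ± 0.048), with overlap between the first 2. BTN2A1 thus ranked behind BTN3A2 and BTN3A1 in WT and ahead of all the BTN3A genes in the knockout.

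Sequence likeness between members bears on how reads were assigned, since the handling of reads that fit more than 1 gene is not given in the sources used here. Proteins translated from annotated transcripts were 82.6% to 91% identical within BTN3A, 85.4% within BTN2A and 40.2% to 46.9% between the subfamilies, over aligned residues. They were 513 residues for BTN3A1, 334 for BTN3A2, 584 for BTN3A3, 527 for BTN2A1 and 523 for BTN2A2. Of all 50-base stretches in their transcripts, 7.22% of BTN3A1, 12.7% of BTN3A2, 14.7% of BTN3A3, 3.92% of BTN2A1 and 2.20% of BTN2A2 also occurred in another member. No such stretch was common to a BTN3A and a BTN2A gene. This covers exact matches of that length in annotated transcripts, and shorter or mismatched reads were not examined. The BTN3A sum was 4.21-fold lower in IRF2KO against WT. A split among its members cannot change this sum, and dropped reads can. The part of shared reads in the differences of the BTN3A genes was not tested.

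The genes around the cluster were read next. In 500 kb on either side, 19 of 40 genes in the table were tested, 17 of them to the left, mostly histone genes, and 2 to the right. With edgeR, DESeq2 or limma-voom, 0 of the 19 passed in any comparison, which is a share near that of all genes (0.365% lower and 0.0521% higher in IRF2KO against WT by edgeR). The rest of the 40 were not tested. Some tested histone genes had few counts, with WT means of 0.12 CPM for HIST1H4E, 0.26 for HIST1H4C and 0.47 for HIST1H4H. At such levels the absence of a call says little. In IRF2KO against WT, 3 of the 19 had an unadjusted p under 0.05, all higher, where 10.7% of all tested genes were higher and 7.98% lower at that level. The median log2 difference there was 0.35, beside -0.01 over all tested genes. HMGN4, a nucleosome-binding protein 61.8 kb to the right of the cluster, had -0.03 ± 0.12, and ABT1, a transcription activator 120 kb to the right, had 0.02 ± 0.13. On the left, HIST1H4H, a histone gene 79.5 kb away, had 0.18 ± 0.44. The 3 genes with an unadjusted p under 0.05 were the histone genes HIST1H2BF, HIST1H2BD and HIST1H4E, also on the left. They are named for that p, and lay between 0.91 ± 0.33 (HIST1H2BF) and 2.08 ± 0.79 (HIST1H4E). Over all 19 genes the log2 differences ran from -0.04 to 2.08.

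**Figure D5:**
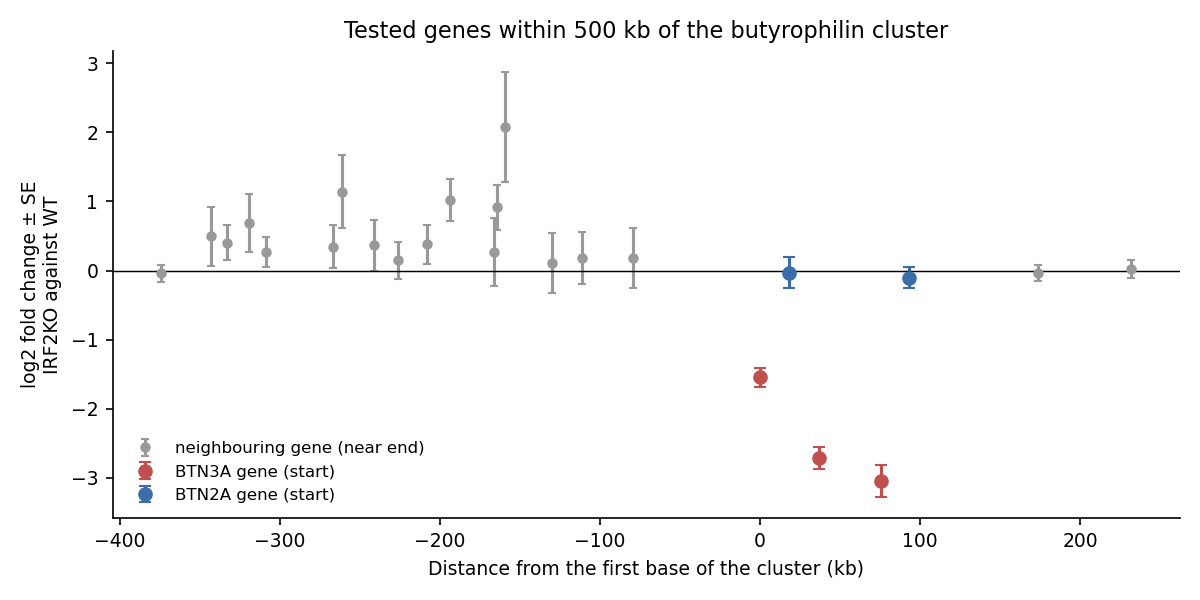
Log2 fold change ± SE in IRF2KO against WT for the 5 butyrophilins and the 19 other tested genes within 500 kb, by distance in kb from the first base of the cluster (neighbours at their near end, butyrophilins at their start). The BTN3A genes lie at -1.54 or lower, and BTN2A2 and BTN2A1, which lie between and beyond them, are near 0.

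Other genes of the pathway were read from lists of known pathway members, and 0 of their members passed edgeR's test in either direction in any of the 3 comparisons, nor by DESeq2 or limma-voom. For lists this short, that is near the share of all tested genes called (0.365% lower and 0.0521% higher in IRF2KO against WT by edgeR). Of the mevalonate pathway, which makes and consumes phosphoantigens, all 12 genes were tested. In IRF2KO against WT, 3 of the 12 had an unadjusted p under 0.05, all higher, beside 10.7% of all tested genes, and the median log2 difference was -0.02. One of the 3 was FDPS, the enzyme that uses up the phosphoantigen isopentenyl pyrophosphate. It had a WT level of 260 ± 24.9 CPM and an IRF2KO level of 309 ± 17.1 CPM (log2 difference 0.25 ± 0.11, adjusted p = 0.266, edgeR). The others were MVD (0.65 ± 0.21) and LSS (0.44 ± 0.15), which differed more. All 15 listed regulators of BTN3A or BTN2A transcription were tested, and 0 had an unadjusted p under 0.05 in IRF2KO against WT. The shares over all tested genes were 7.98% lower and 10.7% higher. Among them NLRC5, an activator of MHC class I and BTN3A genes, had levels of 12.1 ± 2.68 (WT), 13.9 ± 4.55 (IRF2KO) and 11.6 ± 1.59 CPM (IRF2KO_pIRF2; SD, n = 3). FDPS and NLRC5 were picked for mention after their values had been seen, and MVD and LSS are named for their unadjusted p.

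Of 7 proteins reported to act with BTN3A1, 3 were tested, and in IRF2KO against WT 1 was lower and 1 higher at an unadjusted p under 0.05, beside 7.98% and 10.7% of all tested genes. Of 15 other ligands of gamma delta T and NK cells, 12 were tested and 1 was higher at that level, a share near that of all genes. Of 16 relatives of the butyrophilins, 15 were in the table and 4 passed the filter, ERMAP, HHLA2, CD276 and ICOSLG, with 0 at an unadjusted p under 0.05 in any comparison. The costimulatory ligands CD80 and CD86 and the checkpoint ligand CD274 were below the filter, at no more than 10 counts in any library. In the other 2 comparisons, each list had 0 to 2 genes in a direction at an unadjusted p under 0.05. The shares over all tested genes were 6.82% lower and 4.38% higher in IRF2KO_pIRF2 against IRF2KO. Against WT they were 2.08% lower and 1.84% higher. Of the listed regulators, these were RFXANK in the first (-0.38 ± 0.17) and IRF8 in the second (-0.29 ± 0.09).

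The genes most like BTN3A over the 9 libraries, by Pearson's r of log2 CPM with the mean of the 3 centred members, were UBE2L6 (r = 0.996), IFI6 (0.988), PSME1 (0.987), PSME2 (0.974), C19orf66 (0.973), DTX3L (0.970), UBA7 (0.969) and FAM111A (0.967). This r is a measure of likeness, taken over 9 libraries that share 3 group means, and carries no test. UBE2L6, the enzyme that conjugates the ubiquitin-like protein ISG15, averaged 136 ± 14.4 (WT), 29.4 ± 3.70 (IRF2KO) and 74.0 ± 5.77 CPM (IRF2KO_pIRF2). PSME1, a subunit of the proteasome activator, averaged 233 ± 4.93, 102 ± 2.9 and 172 ± 3.70 CPM in the same order. For BTN2A the closest were AGPAT4 (0.982), TCTA (0.966), ERGIC3 (0.950) and LAIR1 (0.946), whose group means hardly differed.

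Marker genes were read beside these results. The monocytic markers SPI1, CD33, LYZ and CD4 were expressed in all groups, while MPO, CSF1R and ITGAM had group means of 2.43 CPM or less. The summed level of the 8 monocytic markers was 896 to 981 CPM in WT, 1062 to 1162 CPM in IRF2KO and 947 to 995 CPM in IRF2KO_pIRF2. Of the 10 T and NK cell markers, which summed to 294 to 457 CPM, NKG7 made up nearly all, and CD3D had no count in any library. The 4 B cell markers summed to 13.7 to 30 CPM, highest in IRF2KO, with MS4A1 at 0. Epithelial, fibroblast, erythroid and megakaryocyte markers summed to no more than 2.63 CPM. The part of these levels in the BTN3A differences was not tested.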

How the data were processed

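RNA of U937-Cas9 cells was made into 9 libraries with a Lexogen SENSE kit for mRNA, per the labels' protocols. The authors deposited 1 table of raw counts by gene and library, without normalisation. Per the submitters' processing notes, hg38 was the build, and HTSeq 0.9.1, TopHat2 2.1.1, Bowtie2 2.3.3, bedtools and SAMtools were used. What each tool did, the annotation release, the strand setting and the handling of multiply matching reads are not given in the sources. Identifiers were matched to GENCODE 29 (20012 of 20265), and 5317 had no count in any library.

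After filterByExpr and TMM scaling, 11517 genes were tested in edgeR 4.0.16 (R 4.3.3) by quasi-likelihood in 1 fit of all 9 libraries, with Benjamini-Hochberg adjustment and a threshold of 0.05. CPM are TMM-normalised; log2 CPM for likeness used a prior count of 2. Subfamily sums replaced their members in the same fit. DESeq2 1.42.0, limma-voom (limma 3.58.1) and the other alternatives are given in the closing section. The script was checked on simulated counts. Floors (3 counts) and Wilson intervals cover counting error only. Promoters came from RefSeq, with 3 of 5 members matched, and proteins were translated from GENCODE 29 transcripts.

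The members, lists, markers and tests were chosen with earlier results of these data known. Named genes were the members, IRF2, called list members, the 8 genes most like BTN3A and the 4 most like BTN2A with at least 5 CPM in the highest group, and the nearest neighbours; exceptions are stated.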

Additional observations from a re-analysis of the deposited data

How the results depend on the processing

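In IRF2KO against WT the 3 BTN3A genes were also called in all 17 alternative settings. These settings refit the counts on which the genes were selected, so nothing is read from that. The BTN3A sum in this comparison lay between -2.13 and -2.04 on the log2 scale. DESeq2 called 121 genes there (69 lower and 52 higher, beside 42 and 6 with edgeR) and the fit of only the 2 groups 31; leaving out 1 library gave 34 to 49. In IRF2KO_pIRF2 against IRF2KO, DESeq2 called 68 genes and leaving out 1 library gave 26 to 47, with 2 or 3 members called. In IRF2KO_pIRF2 against WT, 9 of 11517 tested genes and 1 member were called. With no filter these were 18 of 14948 genes and 2 members, with DESeq2 39 of 11517 and 3, and with limma-voom 12 of 11517 and 2. Without WT replicate 1 and IRF2KO replicate 2 they were 27 of 11563 and 3, and with only the 2 groups 16 genes and 2 members. In each of these settings more genes were called over the whole table as well, and nothing is read from the member counts. Leaving out 1 library there gave 3 to 25 genes and 0 to 3 members; the count fell to 3 or 4 genes without WT replicate 2 or any pIRF2 library and rose to 25 without IRF2KO replicate 2. The log2 difference of the BTN3A sum was then -0.97 to -0.84. The cause of these shifts was not tested.

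No BTN2A value was called in any setting, and several changed sign. The BTN2A sum ranged from -0.18 to 0.0081 in IRF2KO against WT, from -0.076 to 0.079 in IRF2KO_pIRF2 against IRF2KO and from -0.19 to 0.0016 in IRF2KO_pIRF2 against WT when 1 library was left out. In the second comparison it was 0.00036 with no filter and 0.045 without WT replicate 1 and IRF2KO replicate 2. BTN2A1 ranged from -0.091 to 0.069 in that comparison, and BTN2A2 from -0.29 to 0.11, from -0.078 to 0.29 and from -0.10 to 0.15 in the 3 comparisons. With the mitochondrial share as a term BTN2A2 was -0.040 in IRF2KO_pIRF2 against IRF2KO and -0.21 against WT, and without that pair of libraries it was -0.11 against WT. In IRF2KO against WT, leaving out that pair gave -0.40 for BTN2A2 and -0.23 for the BTN2A sum.

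Replicate numbers did not pair the libraries: deviations of same-numbered libraries correlated between -0.43 and 0.61. With the replicate number as a block, 39, 36 and 7 genes were called in the 3 comparisons and the members called stayed at 3, 3 and 1; the IRF2 call in IRF2KO against WT was lost (adjusted p = 0.0642, edgeR). Per kb of the longest transcript, the order of the members was the same in each group, though in WT BTN3A2 no longer overlapped BTN3A1 and BTN2A1 overlapped BTN3A3, and in IRF2KO_pIRF2 BTN2A1 overlapped BTN3A1 in place of BTN3A2. Shared 75-base stretches were fewer, 3.99%, 7.61% and 9.23% for BTN3A1, BTN3A2 and BTN3A3. In the knockout, BTN3A1, BTN3A3 and BTN2A2 rested on 16 to 81 counts a library, which limits their precision.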
